A study of Saccharomyces cerevisiae with 8 samples.

Results

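The comparison described here set the control yeast strain at the sample labelled D6 against the same strain at the sample labelled EX, gene by gene, on 4 of the 8 arrays of the series. All 5444 genes named by a probe set were its members, each represented by the probe set with the highest mean over the 8 arrays. The study followed Saccharomyces cerevisiae through growth and ageing in culture, with and without low expression of a mutant human ubiquitin. The control strain was the haploid CEN.PK113-11C background, given in the study's methods as MATα his3Δ1 ura3-52 MAL2-8c SUC2, carrying an empty p413 TEF plasmid selected through HIS3. The other strain, L-UBB+1, carried the same plasmid with UBB+1 behind the TEF promoter and differed in no other stated allele. Both strains were grown in shake flasks at 30 °C and 200 rpm in glucose medium without histidine, with no drug or other treatment. EX stands for exponential growth, and D6 for stationary phase, 6 days after the carbon source was used up. Each combination of strain and phase had 2 arrays, and the values are log2 expression levels from an Affymetrix yeast array.

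Yeast growing on abundant glucose spends much of its transcription on making ribosomes. RNA polymerase I makes the large ribosomal RNA precursor, RNA polymerase III makes the 5S ribosomal RNA and transfer RNAs, and a large set of nucleolar assembly factors processes the precursor into subunits. When glucose runs out, this programme is turned down, reserve carbohydrates such as trehalose and glycogen are stored, and genes for stress defence, respiration and the use of non-fermentable carbon are turned on. Stationary phase is the resting state that follows, and it serves as a model of ageing in cells that no longer divide.

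Most growth phase markers on the control arrays labelled D6 leaned against that label, though few were called. This bears on every direction given below. Of 20 genes known to be induced in starved or stationary cells, 17 had a lower mean on the arrays labelled D6 than on those labelled EX. For 13 of the 20, both D6 arrays lay below both EX arrays, as did 33.5% of all genes. Only 2 of the 20 were called lower at an adjusted p under 0.05 by limma, and none higher. SPG4, a gene required for survival in stationary phase, read 7.45 and 6.82 on the EX arrays and 6.57 and 6.46 on the D6 arrays. The same probe set read 12.25 to 12.44 on the 4 arrays of the L-UBB+1 strain, those labelled EX included. SPG1, another stationary phase gene, showed the same order, with 7.11 and 6.19 at EX, 6.01 and 5.95 at D6, and 11.55 to 12.25 on the L-UBB+1 arrays. Neither SPG4 nor SPG1 was called between the labels (limma adjusted p 0.102 and 0.250). ADH2, the alcohol dehydrogenase that is repressed by glucose and used to consume ethanol, lay between 6.49 and 6.61 on all 4 control arrays, against 11.68 to 12.12 in the other strain. The lactate transporter gene JEN1 lay between 6.74 and 7.35 on the control arrays, and the gluconeogenic gene PCK1 between 7.19 and 7.37. ADH2 and JEN1 overlapped between the control labels. Not all 20 markers read lower than in the other strain. HXK1 read 9.81 to 11.77 on the control arrays against 9.11 to 9.47 on the L-UBB+1 arrays. The ranges of SNZ1, HSP30, HSP12 and CTT1 overlapped between the strains. Markers of growth ran the other way, since 8 of 9 measured had a higher mean on the D6 arrays. In 7 of them both D6 arrays lay above both EX arrays, as did 32.0% of all genes, and 1 was called higher. On the stationary phase list, 14 of 17 genes had a lower mean on the D6 arrays and 3 a higher one. No gene of that list was called, and its median difference was -0.295. The arrays are therefore named below as labelled, D6 and EX, and "higher" means higher on the arrays labelled D6. Whether samples or labels were exchanged was not tested.

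**Figure D1:**
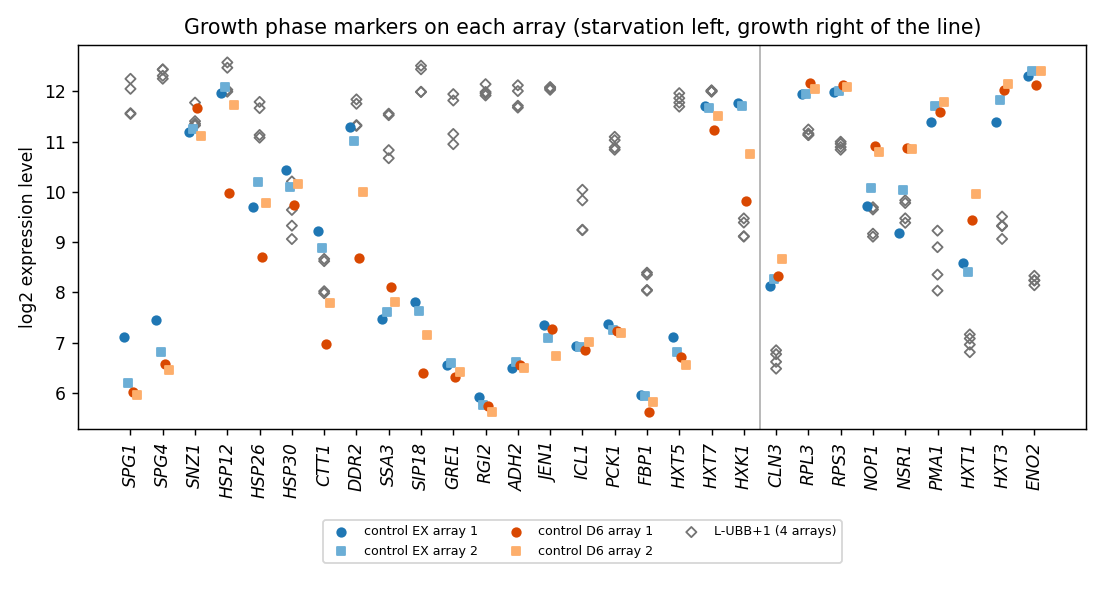
Log2 expression level of 20 starvation markers and 9 growth markers (horizontal axis) on each control array (filled symbols) and on the 4 L-UBB+1 arrays (open diamonds). The control arrays labelled D6 sit at or below those labelled EX for most starvation markers. SPG4, SPG1, ADH2, JEN1 and PCK1 read far lower on all 4 control arrays than on the L-UBB+1 arrays. HXK1 reads higher on the control arrays, and SNZ1, HSP30, HSP12 and CTT1 overlap between the strains.

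On the arrays labelled D6, 71 of 170 ribosome biogenesis genes and 8 of 48 transfer RNA modification genes were called higher than on those labelled EX, and none of either list lower. Calls in the other direction were fewer, with 5 of 22 trehalose and glycogen genes, 3 of 28 TCA cycle genes and 2 of 28 general stress genes lower. With limma, 191 of the 5444 genes differed at an adjusted p under 0.05 (3.51%). Of these, 135 were higher (2.48% of the genes tested) and 56 were lower (1.03%). Counts of called genes in each list are to be read against these shares. The median difference was 0.88 on the log2 scale among the higher genes and -0.78 among the lower ones, while the median over all genes was 0.00. Of the 191 genes, 53 differed by at least 2-fold, 36 of them upward and 17 downward. The lowest adjusted p of any gene was 0.0310, so each call lay close to the threshold. No gene was called when only the 4 control arrays were fitted (lowest adjusted p 0.0809), or without EX array 1, D6 array 1 or either L-UBB+1 array labelled EX. With 2 arrays against 2, an exact two-sided permutation test of a single gene cannot go below 0.333, and the p-values rest on a spread shared across genes and groups.

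**Figure D2:**
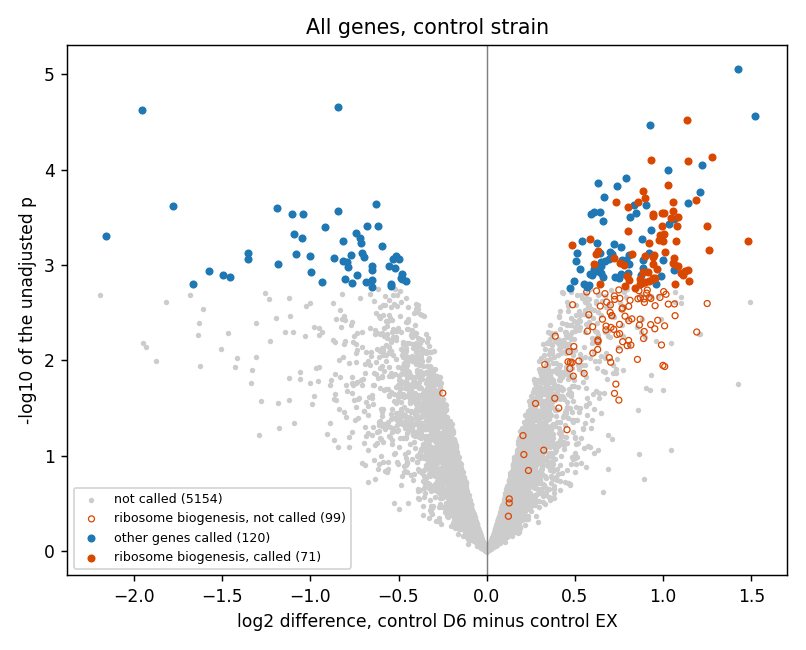
Difference in log2 level between control arrays labelled D6 and EX (horizontal axis) against -log10 of the unadjusted limma p (vertical axis) for each of 5444 genes. Filled points are the 191 called genes, 71 of them ribosome biogenesis genes (orange), which lie to the right of 0.

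The 4 control arrays were ordered as well as grouped. The standard deviation of the difference between arrays over all genes was 0.20 for the EX arrays and 0.26 for the D6 arrays. Between the groups it ran from 0.25 for EX array 2 against D6 array 2 to 0.51 for EX array 1 against D6 array 1. The closest arrays of opposite label thus differed about as much as the D6 arrays did from each other. The first principal component of these arrays held 81.5% of the variance, with scores of -18.5 and -7.83 for EX arrays 1 and 2 and of 7.82 and 18.5 for D6 arrays 2 and 1. Among the 135 higher genes, 97 followed this order from EX array 1 to D6 array 1 exactly, and 48 of the 56 lower genes followed it in reverse. These genes were called on the same arrays and all had separate groups, so only the order within each group was free. The share over all genes was not counted, and no conclusion is drawn from these counts. Over all genes, both D6 arrays lay above both EX arrays for 32.0% and below them for 33.5%.

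Factors that assemble ribosomes formed the largest block of called genes. Of 170 ribosome biogenesis genes, 71 were higher and none was lower. The median difference over the list was 0.83, against 0.00 over all genes. Both D6 arrays lay above both EX arrays for 167 of the 170, against 32.0% of all genes. Relative to the EX mean, the list's median stood at -0.20 and 0.20 on EX arrays 1 and 2 and at 0.91 and 0.77 on D6 arrays 1 and 2. The groups did not overlap, but EX array 2 stood closer to the D6 arrays than EX array 1 did. No list member was called when only the control arrays were fitted.

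RNA helicases, which remodel the ribosomal RNA precursor, were among the largest differences. DBP2, a DEAD-box helicase, read 8.57 and 9.42 on the EX arrays and 10.50 and 10.44 on the D6 arrays, a difference of 1.48 ± 0.25 (SE, 2 arrays per group, limma adjusted p 0.0433). The EX arrays lay further apart than the D6 arrays, and both D6 arrays lay above both EX arrays. DHR2, a DEAH-box helicase needed for 18S ribosomal RNA, read 6.95 and 7.41 at EX against 8.53 and 8.39 at D6, with a difference of 1.28 ± 0.16 (limma adjusted p 0.0389). HAS1, a helicase that acts in both subunit pathways, read 8.33 and 8.60 at EX against 9.59 and 9.61 at D6, with a difference of 1.13 ± 0.12 (limma adjusted p 0.0310). For these 3 genes the D6 arrays lay within 0.15 of each other. DRS1, a helicase of the large subunit pathway, differed by 1.12. Of the 9 measured genes with a DBP name, 7 were higher, with differences from -0.07 to 1.48 over the family.

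Factors of the large subunit came next. ERB1, which works with NOP7 and YTM1 in processing of the 27S precursor, read 8.24 and 8.71 at EX against 9.70 and 9.76 at D6, a difference of 1.25 ± 0.20 (limma adjusted p 0.0398). ARX1, which accompanies the large subunit out of the nucleus, read 7.85 and 8.43 at EX against 9.45 and 9.34 at D6, a difference of 1.26 ± 0.22 (limma adjusted p 0.0435). RPF2, which brings the 5S ribonucleoprotein into the large subunit, read 8.26 and 8.73 at EX against 9.77 and 9.60 at D6, a difference of 1.19. In all 3 genes the groups were separate, as for every called gene, and EX array 1 was the lowest array. SDA1, also needed for the large subunit, differed by 1.14, as its 2 D6 arrays read 9.59 and 9.48 against 8.20 and 8.58.

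Called genes also included factors of the small subunit. ENP1, a factor of the small subunit precursor, read 7.37 and 7.94 at EX against 8.78 and 8.81 at D6, a difference of 1.14 ± 0.22 (limma adjusted p 0.0453). RRP12, which takes part in export of both subunits, read 8.49 and 9.06 at EX against 10.06 and 9.79 at D6, a difference of 1.15 ± 0.23 (limma adjusted p 0.0468). The UTP genes encode the complex that makes the first cuts in the precursor. All 18 measured UTP genes had both D6 arrays above both EX arrays, against 32.0% of all genes. Of them, 8 were called higher, and the differences of the 18 lay between 0.49 and 1.06. All 17 measured NOP genes likewise had both D6 arrays on top, with 7 called. NSR1, the yeast nucleolin, read 9.18 and 10.04 at EX against 10.87 and 10.85 at D6, a difference of 1.25 with an adjusted p of 0.0514 by limma, just past the threshold. NOP1, the fibrillarin that methylates ribosomal RNA, had a difference of 0.95 and a limma adjusted p of 0.0640.

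**Figure D3:**
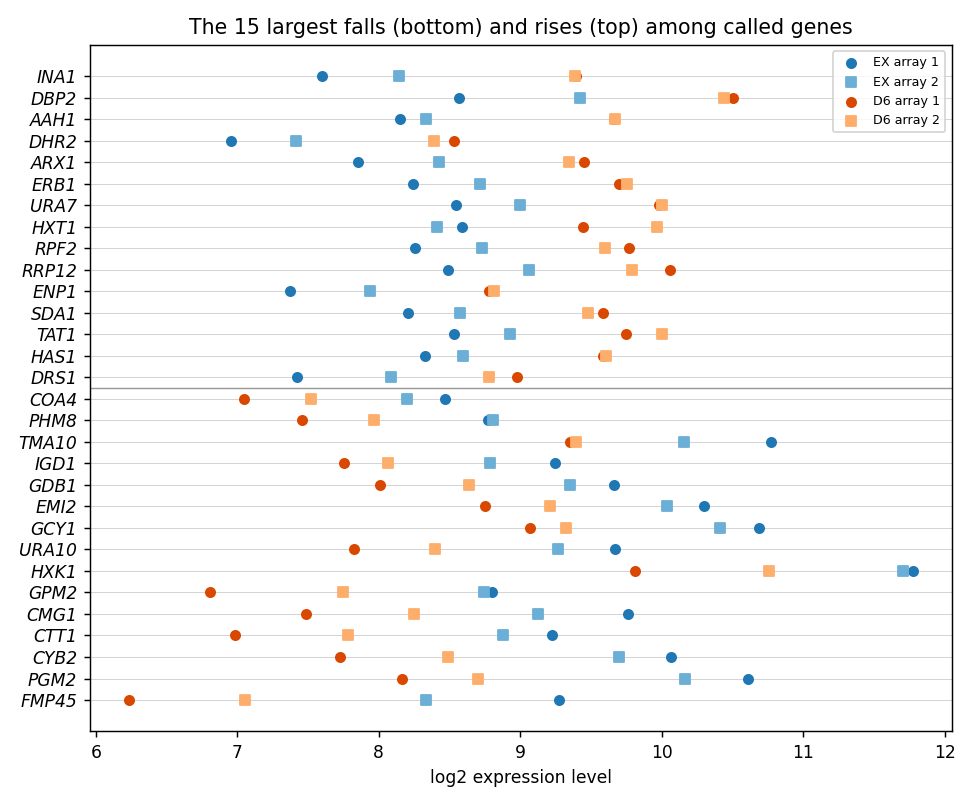
Log2 level of the 30 called genes with the largest differences on each of the 4 control arrays, with the 15 rises above the line and the 15 falls below it, for reading along each row only. The genes were chosen for separate groups and for the largest differences, so the separation in every row follows from that choice. The means differ by more than 1 unit of log2 in each row.

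Polymerases that transcribe ribosomal and transfer RNA genes were called in 1 direction. Of 40 subunits and factors of RNA polymerase I and III, 6 were higher and none lower, with a median difference of 0.44. Of the 40, 7 had a lower mean on the D6 arrays, down to -0.415. Both D6 arrays lay above both EX arrays for 32 of the 40 and below them for 5, against 32.0% and 33.5% of all genes. All 7 measured RNA polymerase I subunits had separate groups, and 4 were called. RPA135, the second largest subunit, read 9.46 and 9.68 at EX against 10.63 and 10.50 at D6, a difference of 1.00 ± 0.18 (limma adjusted p 0.0435). RPA190, the largest subunit, read 9.24 and 9.32 at EX against 10.26 and 10.04 at D6, a difference of 0.87. RPA49 and RPA43 differed by 0.92 and 0.90. RNA polymerase III subunits had smaller differences, from 0.33 to 0.74 over 11 genes, of which 2 were called.

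Genes for modifying transfer RNA followed, with 8 of 48 called higher, none called lower and a median of 0.48. Over all genes 2.48% were called higher. The mean was higher on the D6 arrays for 40 of the 48 and lower for 8. ELP2, a subunit of Elongator, which modifies wobble uridines, read 8.01 and 8.38 at EX against 9.01 and 9.07 at D6, a difference of 0.84 ± 0.13 (limma adjusted p 0.0389). GCD10, a subunit of the methyltransferase for adenosine in transfer RNA, differed by 0.77. TRM82, needed for 7-methylguanosine, differed by 0.76, and TRM3, a ribose methyltransferase, by 0.70. All of these had D6 arrays above EX arrays, as did every gene called higher.

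Lists further along the pathway had smaller medians. None of the 20 cytosolic tRNA synthetase genes was called, and the list's median was 0.30. All 20 had both D6 arrays above both EX arrays, against 32.0% of all genes. Of 38 translation factor genes 1 was higher, GCD1, a subunit of the exchange factor eIF2B, at 0.58 ± 0.12 (limma adjusted p 0.0482). That is 2.63% of the list, close to the 2.48% of all genes called higher. The structural proteins of the cytosolic ribosome had a median difference of 0.12 over 127 genes, and none was called higher. The list had 116 genes with a mean above that at EX and 11 below it. One of the 11 was RPL15B, the one called gene of the list, which read 9.25 and 9.22 at EX against 8.67 and 8.81 at D6 (difference -0.50 ± 0.09, limma adjusted p 0.0435). RPL15A and RPL15B encode almost the same protein, but the probe set of RPL15B was not marked as able to cross-hybridize. Such marked probe sets read 28 of the 127 ribosomal protein genes.

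**Figure D4:**
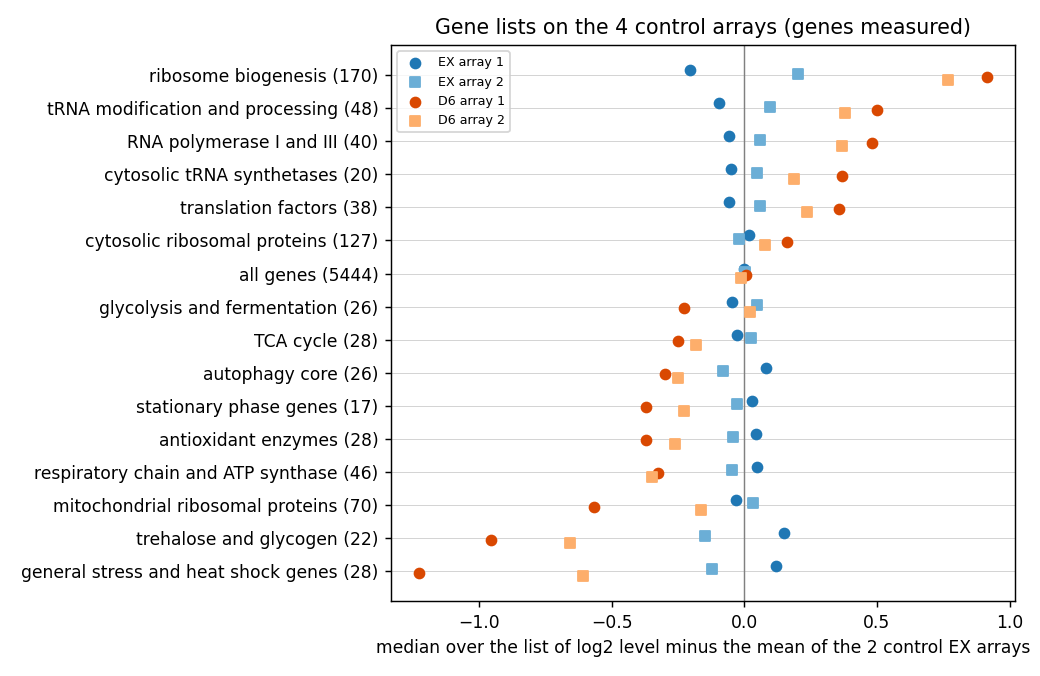
Median over each gene list of the log2 level minus the mean of the control EX arrays (horizontal axis), for each control array, with the number of genes measured in brackets. Ribosome biogenesis stands at 0.91 and 0.77 on the D6 arrays and general stress genes at -1.23 and -0.61, while the median over all genes stays near 0 on each array.

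Uptake and nucleotide genes added a few large differences. AAH1, adenine deaminase of the purine salvage pathway, read 8.15 and 8.34 at EX against 9.66 and 9.67 at D6, a difference of 1.42 ± 0.13 (limma adjusted p 0.0310). Its separation was among the cleanest, with each group's arrays within 0.19 of each other. IMD4, an IMP dehydrogenase of guanine nucleotide synthesis, differed by 0.79. URA7, a CTP synthase, read 8.55 and 9.00 at EX against 9.98 and 10.00 at D6, a difference of 1.22 ± 0.16 (limma adjusted p 0.0389). FUR4, the uracil permease, differed by 1.06. URA10, the minor isozyme of orotate phosphoribosyltransferase, went the other way, from 9.67 and 9.26 at EX to 7.82 and 8.4 at D6, a difference of -1.36. Over all genes 2.48% were called higher and 1.03% lower. The pyrimidine list as a whole had 2 of 14 genes higher and 1 lower, and the list of purine, serine and one-carbon genes 2 of 34 higher and 1 lower. The lower gene there was SER3, which encodes 3-phosphoglycerate dehydrogenase of serine synthesis, at -0.82 ± 0.15 (limma adjusted p 0.0435).

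Among transporters, HXT1, the low-affinity glucose transporter that is induced by high glucose, read 8.59 and 8.41 at EX against 9.45 and 9.96 at D6. The difference was 1.21 ± 0.17 (limma adjusted p 0.0389). It was the only called member of 20 hexose transporter and glucose sensing genes, while 2.48% of all genes were called higher. HXT3, another low-affinity transporter, had a difference of 0.48 (limma adjusted p 0.126). TAT1, an amino acid permease, read 8.53 and 8.93 at EX against 9.74 and 10.00 at D6, and GNP1, the glutamine permease, differed by 0.61. The largest rise of all was in INA1, which read 7.60 and 8.14 at EX against 9.40 and 9.38 at D6, a difference of 1.52 ± 0.16 (limma adjusted p 0.0310). On a list of 26 phosphate genes, the phosphatase gene PHO3 differed by 0.74 and the vacuolar phosphate transporter gene PHO91 by 0.49. PHM8, a nucleotide phosphatase gene on that list, differed by -1.08. Control of these genes by phosphate was not tested, and they are not read as a phosphate response. In the lipid synthesis list ELO2, a fatty acid elongase, was the one called gene of 40, at 0.57. That share of 2.5% was close to the 2.48% of all genes called higher.

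Reserve carbohydrate genes formed the list with the most lower calls. Of 22 trehalose and glycogen genes, 5 were lower and none higher, and the median was -0.80. Both D6 arrays lay below both EX arrays for 21 of them, against 33.5% of all genes. PGM2, the main phosphoglucomutase, read 10.61 and 10.17 at EX against 8.17 and 8.70 at D6, a difference of -1.95 ± 0.21 (limma adjusted p 0.0310). GDB1, the glycogen debranching enzyme, read 9.66 and 9.35 at EX against 8.01 and 8.64 at D6, a difference of -1.18 ± 0.22 (limma adjusted p 0.0435). GSY2, the main glycogen synthase, read 9.99 and 9.60 at EX against 8.57 and 9.01 at D6, a difference of -1.0. Both building and breaking down of the reserve were represented. ATH1, the acid trehalase, differed by -0.79, and IGD1, an inhibitor of the debranching enzyme, by -1.11.

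Genes of the general stress response had a median of -0.90 over 28 genes, the lowest of the 45 lists. Without D6 array 1 the median was -0.61, above the -0.66 of the trehalose and glycogen list. Of the 28 genes, 25 had separate groups with the D6 arrays below, against 33.5% of all genes, yet only 2 passed the test. CTT1, the cytosolic catalase, read 9.22 and 8.88 at EX against 6.98 and 7.79 at D6, a difference of -1.67 ± 0.34 (limma adjusted p 0.0473). GRE3, an aldose reductase, read 10.22 and 10.23 at EX against 9.00 and 9.58 at D6, a difference of -0.93. The D6 arrays differed widely here, with list medians of -1.23 on array 1 and -0.61 on array 2 relative to the EX mean. DDR2, a stress gene of the same list, read 11.29 and 11.02 at EX against 8.68 and 9.99 at D6, a difference of -1.82 that had an adjusted p of 0.0514 by limma. HSP12, a membrane-protecting heat shock protein gene, was at 9.98 on D6 array 1 but at 11.73 on D6 array 2, near the EX values of 11.97 and 12.09. Antioxidant enzyme genes had 1 of 28 lower, CTT1 itself, and a median of -0.31.

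Of the kinases that phosphorylate glucose, HXK1 and GLK1 were called lower, while HXK2, the main hexokinase during growth on glucose, had a difference of -0.08 (limma adjusted p 0.661) and is given here after its values were seen. HXK1, the hexokinase that yeast uses most when glucose is scarce, read 11.77 and 11.70 at EX against 9.81 and 10.76 at D6, a difference of -1.45 ± 0.29 (limma adjusted p 0.0461). GLK1, the glucokinase, read 11.25 and 11.19 at EX against 9.90 and 10.56 at D6, a difference of -0.99. EMI2, a close relative of GLK1, differed by -1.19, and GPM2, a relative of phosphoglycerate mutase, by -1.50. PYK2, the pyruvate kinase isoform that glucose represses, differed by -0.68. HXK1, GLK1 and PYK2 were the 3 called genes among 26 of glycolysis and fermentation, whose median was -0.12. ENO2, a major glycolytic enolase, had a difference of -0.11 with overlapping groups.

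Lists of mitochondrial genes had medians below 0 but only a few calls. Among 46 genes of the respiratory chain and ATP synthase, 1 was called and the median was -0.34. Both D6 arrays lay below both EX arrays for 40 of them, against 33.5% of all genes. The called gene was QCR8, a subunit of complex III, which read 10.40 and 10.34 at EX against 9.80 and 9.68 at D6 (difference -0.63 ± 0.09, limma adjusted p 0.0389). The 70 genes listed as mitochondrial ribosomal proteins all had a lower mean at D6, with a median of -0.39. Of them 2 were called lower, MRPL25 at -0.54 and MRP8 at -0.51, against 1.03% of all genes. MRP8 was listed by its name, and a role of its product in that ribosome is not established. This list differed between the D6 arrays, at -0.57 on array 1 and -0.17 on array 2. COA4, an assembly factor of cytochrome oxidase, differed by -1.05.

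In the TCA cycle 3 of 28 genes were lower and none was higher, against 1.03% and 2.48% of all genes. CIT1, the mitochondrial citrate synthase, read 10.78 and 10.59 at EX against 10.14 and 10.13 at D6, a difference of -0.55 ± 0.10 (limma adjusted p 0.0443). SDH1 and SDH2, subunits of succinate dehydrogenase, differed by -0.52 and -0.54. Enzymes that feed the chain from outside the cycle had larger differences. CYB2, the L-lactate dehydrogenase of the intermembrane space, read 10.07 and 9.70 at EX against 7.72 and 8.49 at D6, a difference of -1.78 ± 0.27 (limma adjusted p 0.0389). GUT2, the mitochondrial glycerol-3-phosphate dehydrogenase, differed by -0.85, and ALD4, the mitochondrial aldehyde dehydrogenase, by -0.69. The groups were separate for each of these genes, as for every called gene. CYB2, GUT2 and ALD4 were the called members among 19 genes for gluconeogenesis and for using acetate through the glyoxylate cycle. The median of that list was -0.17, and 1.03% of all genes were called lower.

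Several lower genes belonged to other processes. FMP45, a relative of SUR7 at the cell membrane, had the largest called fall, from 9.27 and 8.34 at EX to 6.24 and 7.06 at D6, a difference of -2.16 ± 0.36 (limma adjusted p 0.0433). Its arrays differed by close to 1 unit within each group, but the groups were separate. CMG1 differed by -1.58. GCY1, a glycerol dehydrogenase, read 10.68 and 10.41 at EX against 9.07 and 9.32 at D6, and TMA10, a ribosome-associated protein, 10.77 and 10.16 at EX against 9.36 and 9.39 at D6. CWP1, a cell wall mannoprotein, had a smaller but tighter difference, from 9.60 and 9.51 to 8.71 and 8.72, of -0.84 ± 0.09 (limma adjusted p 0.0310).

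Over all genes 3.51% were called, and the lists of protein turnover are to be read against that share. No proteasome gene of 36 was called, and their median was -0.11. Of 34 ubiquitin and conjugation genes, 2 were lower and none higher. UBC8, the conjugating enzyme that marks fructose bisphosphatase for breakdown, differed by -0.74 ± 0.12 (limma adjusted p 0.0433), and UBP15, a deubiquitinating enzyme, by -0.61 ± 0.10 (limma adjusted p 0.0398). One of 26 autophagy genes was lower, ATG19, the receptor of the cytoplasm-to-vacuole pathway, which read 9.04 and 8.87 at EX against 7.97 and 8.11 at D6. No gene was called among 41 chaperones, 32 genes of the unfolded protein response, 10 histones, 39 cell cycle regulators or 53 DNA replication genes.

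Some lists had their difference on D6 array 1 alone. Genes for synthesis of lysine, arginine and glutamate stood at 0.48 on D6 array 1 and -0.09 on D6 array 2 relative to the EX mean, and those for branched-chain, aromatic and histidine synthesis at 0.45 and 0.03. No gene of either list, with 23 and 34 members, was called. The iron regulon stood at 0.34 and 0.05, also with no called gene among 33. Zinc and copper genes ran the other way round, at -0.07 on array 1 and 0.37 on array 2.

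The same labels set against each other in the L-UBB+1 strain gave 0 called genes (0% of 5444) by limma. Before adjustment 10 genes had a limma p under 0.05 there, against 1480 in the control strain. These 2 contrasts share no array. With no difference in any gene, about 272 would be expected under 0.05, so 10 is fewer than a plain absence of difference would give. Ribosome biogenesis genes had a median of 0.02 there, against 0.83 in the control strain. The 135 genes higher in the control strain had a median of 0.02, and 86 of them had the same sign in both strains, while the 56 lower genes had a median of -0.03, 35 of them with the same sign. The difference between the strains' phase effects was itself tested, and no gene passed (0%, lowest adjusted p 0.275 by limma). Before adjustment 868 genes had a limma p under 0.05 for it, against about 272 expected with no difference. Arrays of the L-UBB+1 strain paired most closely across labels. The standard deviation was 0.09 between EX array 1 and D6 array 2 and 0.14 between EX array 2 and D6 array 1. Within labels it was 0.25 between the EX arrays and 0.29 between the D6 arrays. These gaps within labels enter the spread of the fit, so the 0 calls do not show that the labels were alike. With replicate numbers crossed between the labels as a block, a fit chosen after seeing the data, 676 genes passed for the difference between strains and 1519 for the control strain's own contrast, so both counts depend on how the arrays are paired.

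**Figure D5:**
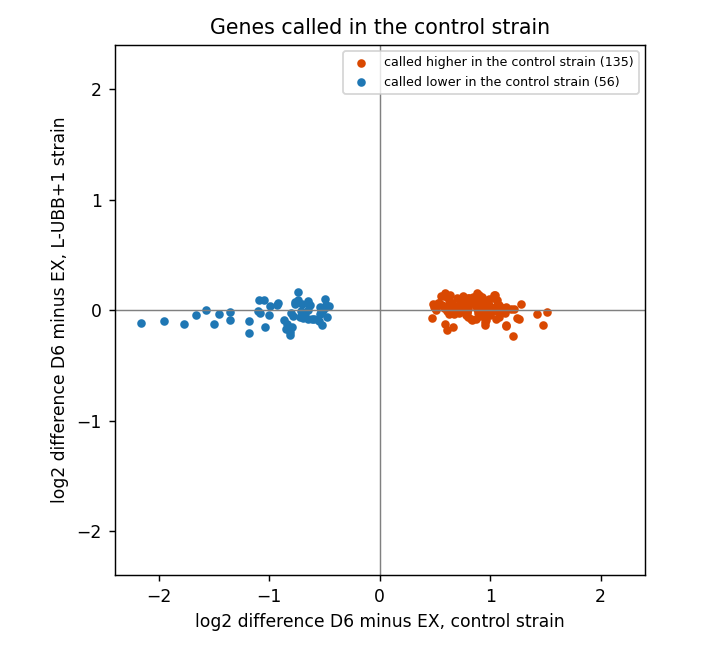
Log2 difference D6 minus EX in the control strain (horizontal axis) against that in the L-UBB+1 strain (vertical axis) for the 135 higher and 56 lower genes called in the control strain. On the vertical axis the points stay near 0, with medians of 0.02 and -0.03.

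No gene that identifies the strain or serves as a reference was called. ACT1, TAF10 and ALG9, used as references, differed by -0.08, -0.09 and 0.11. HIS3, the marker of the plasmid, read 11.58 and 11.41 at EX against 12.15 and 11.20 at D6, with the arrays of the groups overlapping. Mating type was stated as α in the methods. On the control arrays the α-factor gene MF(ALPHA)1 read 5.90 to 6.32 and STE3, the receptor carried by α cells, 6.29 to 6.82. The a-factor gene MFA1 read 8.90 to 9.34 and STE2, the receptor carried by a cells, 9.99 to 10.74. The α genes MF(ALPHA)1 and STE3 thus read below the control array medians of 8.34 to 8.37, and the a genes MFA1 and STE2 above them. This order is the reverse of what the stated type would give. The genes are read by different probe sets, whose levels compare only roughly, and the mating type was not tested further. No called gene other than 1 among the lower ones was read by a probe set marked as able to cross-hybridize. Array medians lay between 8.34 and 8.42 over the 8 arrays, after the authors' normalization across arrays. The 2 arrays of a group are labelled as biological replicates.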

How the data were processed

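Total RNA (100 ng) was labelled with a 3' IVT kit and hybridized to Affymetrix Yeast Genome 2.0 arrays. The deposited values are log2 levels, which the authors normalized in R across arrays (version 3.2.3 per the submitters' notes). The method of background correction and summarization is stated in none of the sources used here, and raw scans were not used. Of 5705 probe sets, 5489 had 1 gene symbol, 0 several and 216 none, which gave 5444 genes, 12 of them under an updated symbol. Differences between means of 2 arrays were tested with limma 3.58.1 in R 4.3.3, with 4 group means fitted on 8 arrays (4 residual and 3.26 prior degrees of freedom), Benjamini-Hochberg adjustment over 5444 genes and a threshold of 0.05. The script was tested on simulated data. The named genes were the 15 largest called rises and falls with separate groups, up to 4 called members of each of 45 gene lists, the growth phase markers, and genotype and reference genes. Members, lists and markers were chosen with earlier results of these data known. An array's depth is set by its number of probes, and 2 arrays per group limit the precision. Alternatives covered scaling, filters, probe set choice, the variance prior, replicate blocks and left-out arrays. Promoter motifs were not analysed here.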

Additional observations from a re-analysis of the deposited data

Results flagged for a closer look

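Probe sets that carry no gene symbol were fitted as well, and few of them were called. When all 5705 probe sets were fitted together with limma, 3 of the 216 unnamed ones differed between control arrays labelled D6 and EX past the adjusted threshold of 0.05. Before adjustment 69 of the 216 had a limma p under 0.05, where the main fit had 1480 of 5444 genes. There was a median difference of -0.12 over the 216. That fit called 177 of the 5705 probe sets in all, a larger share than the 3 of 216.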

How the results depend on the processing

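The number of calls was not stable over the 20 alternative fits. Signs of the called genes could not turn in most of them, since the groups of all 191 do not overlap and many fits leave the difference as it is. Median centring gave 280 called genes (202 higher, 78 lower), quantile normalization 287 (207 and 80), and a prior variance with trend 264 (188 and 76). Leaving out the dimmest genes gave 241 of 4083 (166 and 75), probe sets that do not cross-hybridize 228 (162 and 66), the mean of a gene's probe sets 190 (135 and 55), and a robust prior 197 (142 and 55). No gene was called with only the 4 control arrays, or, in fits added after seeing the data, without L-UBB+1 arrays EX 1 and D6 2 or without EX 2 and D6 1 (0, 0 higher and 0 lower, lowest adjusted p 0.0809 each). These 3 fits take their spread from the control arrays alone by construction. Requiring 2-fold left 53 (36 and 17), an adjusted p under 0.001 with 2-fold left 0, an adjusted p under 0.1 gave 788 (455 and 333), and an unadjusted p under 0.05 gave 1480 (734 and 746) and 868 for the difference between strains.

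Leaving out 1 array at a time gave 0 to 296 called genes (0 to 204 higher, 0 to 102 lower) and 0 for the difference between strains. The count was 0 without control EX array 1, control D6 array 1 or either L-UBB+1 array labelled EX, 272 without control EX array 2, 170 (68 and 102) without control D6 array 2, and 296 without either L-UBB+1 array labelled D6. An array left alone in its group was assumed to vary like the other groups. With the replicate number as a block there were 0 calls (0 higher, 0 lower, lowest adjusted p 0.215), though the labels do not say that a number marks a shared culture, and deviations of same-numbered arrays correlated at -0.10 in the control strain and -0.86 in the other. The crossed pairing, added after seeing the data, gave 1519 calls (781 and 738) and 676 for the difference between strains. Of the values of the 64 named genes called, 659 under alternatives no longer passed, and 869 still did. These totals include the changed thresholds on the main fit. There, a looser threshold keeps every called gene by construction, and a stricter one can only remove calls. With 2 arrays per group, differences of the size seen between replicates cannot be resolved.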

Other observations

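Outside the lists, 39 of 3867 genes were called higher (1.01%) and 29 lower (0.75%), with a median difference of -0.02. Those named here were chosen after their values were seen, and no group was tested. Among the higher genes were PWP1, a factor of the large subunit, at 0.99, TOD6, a repressor of ribosome biogenesis genes, at 1.06, and RKI1, ribose-5-phosphate isomerase, which makes the sugar of nucleotides, at 1.03. EFM1, EFM2 and EFM4, methyltransferases of elongation factors, differed by 0.80, 0.61 and 0.63. KAP123, an import receptor for ribosomal proteins, differed by 0.83, and URK1, uridine kinase, by 0.89.

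Lower genes outside the lists included assembly factors and partners of the respiratory chain, with COX14 at -0.71, MSS2 at -0.69, CMC2 at -0.65, SDH8 at -0.65, COQ9 at -0.48 and SHY1 at -0.46. VID30, a subunit of the ubiquitin ligase with which UBC8 works, differed by -0.72. RTN2, a reticulon, had the lowest difference of any gene, -2.19, but missed the threshold (limma adjusted p 0.0505). FET3, the iron oxidase of high-affinity iron uptake and a member of the iron regulon list, also chosen after its value was seen, had a difference of 1.42 with separate but widely spread groups and was not called (limma adjusted p 0.110).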
